A study of Mus musculus with 26 samples.

Results

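The matrix proteases, their inhibitors and the lysyl oxidases were followed in white fat of lean, obese and formerly obese mice. Members were taken by symbol from the 2 gene count tables, as every gene whose name begins with Mmp, Timp, Adam, Adamts or Adamtsl and goes on with a digit, plus Lox and Loxl1 to Loxl4. This gave 89 of the 39017 genes listed. They were 23 matrix metalloproteinases (MMP), 4 tissue inhibitors of metalloproteinases (TIMP), 33 ADAM, 19 ADAMTS and 5 ADAMTS-like genes, and 5 lysyl oxidases. Of the MMPs, 17 were grouped here as secreted, Mmp23 among them, and 6 as membrane-type.

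All mice were wild type C57BL/6J males that started the diets at 9 to 10 weeks of age. LFD mice ate a diet with 10% of energy from fat for 12 weeks, HFD mice one with 60% for 12 weeks, and SW mice the high fat diet for 9 weeks and then the low fat diet for 3 weeks. Epididymal fat was digested with collagenase into floating adipocytes and stromal vascular cells (SVC), and the RNA of each was sequenced. The adipocyte fraction had 3 libraries for each diet, with 6142895 to 23725647 counts, and the SVC fraction is described here from 1 LFD, 2 HFD and 3 SW libraries with 5781902 to 22195810 counts. The labels name 3 libraries for each diet in both fractions, but 3 SVC columns of the count table could not be matched to a group by name and were not used. Libraries are named here by the numbers of their columns. Nothing in the labels says that the libraries of a group came from separate mice, so p-values measure the spread between these libraries. Levels are CPM, that is, counts scaled to library size with trimmed mean (TMM) factors within a fraction, and they can be compared between libraries but not between genes of different length.

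Both fractions carried transcripts of other cells. Adipocyte markers (10 genes) summed to 11685 to 40845 CPM in the adipocyte fraction and 629 to 1312 CPM in the SVC. Macrophage markers (13 of 14 listed genes found) summed to 768 to 1269 CPM in LFD adipocytes, 8486 to 9744 CPM in HFD adipocytes and 6470 to 9910 CPM in SW adipocytes. Fewer cells of one type and less RNA per cell cannot be told apart in such libraries. In the SVC, the SW libraries 412 and 413 held transcripts of male germ cells that were low elsewhere, and mitochondrial transcripts took 33.5% of the HFD library 411 against 6.34% of the HFD library 212.

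Matrix metalloproteinases are zinc enzymes that cut collagens, gelatin, elastin and other matrix proteins, and the 4 TIMPs block them. ADAMs are mostly membrane-bound and release growth factors, cytokines and receptors from the cell surface, whereas ADAMTS enzymes are secreted and cut proteoglycans or trim procollagens. Lysyl oxidases work in the other direction, since they oxidise lysines in collagen and elastin and so start the cross-links that harden the matrix. In adipose tissue these enzymes take part in the rebuilding of the matrix as fat cells grow or shrink, and macrophages and fibroblasts are known sources of several of them.

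Of the 23 MMP genes, 10 lie side by side on chromosome 9, in 427 kb from base 7272514 to base 7699585 (GRCm38). Their promoters share letters that the choice of genes did not use. RefSeq promoters (GRCm38.p6, 250 bases before and 50 after the start) were at hand for 54 members. The AP-1 motif TGANTCA, to which Fos and Jun proteins bind, and the TATA box TATAAA stood together in a promoter of 8 of the 10 cluster genes and in none of the 8 other MMPs with a promoter. Both motifs stood in 0.995% of all 32851 promoters, AP-1 in 7.81% and TATAAA in 8.32%. Shown are the promoters of Mmp13, Mmp12 and Mmp3, which were higher in HFD than in LFD adipocytes, that of Mmp10, which was too low to test, and that of Timp1 on chromosome X, which was also higher. Mmp12 has a pair of listed promoters, and the one with both motifs is printed. Not printed are Mmp27, which was also higher in HFD than in LFD adipocytes and had neither AP-1 nor TATAAA, and Mmp7. The Mmp7 promoter had both motifs, and Mmp7 was called in no adipocyte comparison. Capitals mark TGANTCA and the ETS family motif AGGAAG (PEA3), each searched on both strands, and TATAAA, searched on the strand of the gene. AGGAAG stood in 35.4% of all promoters and 37.3% of the 59 promoters of members. No marked motifs overlap in these 5 promoters.
Mmp13, chr9:7272264-7272563, plus strand: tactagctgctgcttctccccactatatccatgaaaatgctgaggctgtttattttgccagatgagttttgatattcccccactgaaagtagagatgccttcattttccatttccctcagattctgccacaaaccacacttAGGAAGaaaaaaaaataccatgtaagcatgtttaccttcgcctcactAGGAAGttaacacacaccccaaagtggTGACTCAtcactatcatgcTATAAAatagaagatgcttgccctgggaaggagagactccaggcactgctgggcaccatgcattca
Mmp12, chr9:7347124-7347423, plus strand: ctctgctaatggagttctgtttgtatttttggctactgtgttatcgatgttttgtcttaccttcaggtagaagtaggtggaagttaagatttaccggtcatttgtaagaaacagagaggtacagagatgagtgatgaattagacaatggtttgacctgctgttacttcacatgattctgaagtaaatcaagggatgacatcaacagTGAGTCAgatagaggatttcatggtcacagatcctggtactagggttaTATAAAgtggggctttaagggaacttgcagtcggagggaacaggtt
Mmp3, chr9:7445572-7445871, plus strand: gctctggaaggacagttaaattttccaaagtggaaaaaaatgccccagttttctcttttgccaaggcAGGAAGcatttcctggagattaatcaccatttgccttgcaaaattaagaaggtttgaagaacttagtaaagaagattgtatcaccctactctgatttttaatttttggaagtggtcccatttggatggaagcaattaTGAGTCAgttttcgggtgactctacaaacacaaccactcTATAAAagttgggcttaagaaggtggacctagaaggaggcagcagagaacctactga
Mmp10, chr9:7502092-7502391, plus strand: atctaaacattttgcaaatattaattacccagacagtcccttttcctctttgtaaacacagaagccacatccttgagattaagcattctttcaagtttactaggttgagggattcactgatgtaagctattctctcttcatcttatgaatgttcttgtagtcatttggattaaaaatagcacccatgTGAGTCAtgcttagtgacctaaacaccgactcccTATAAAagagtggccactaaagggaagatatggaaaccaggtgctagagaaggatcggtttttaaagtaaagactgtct
Timp1, chrX:20869916-20870215, plus strand: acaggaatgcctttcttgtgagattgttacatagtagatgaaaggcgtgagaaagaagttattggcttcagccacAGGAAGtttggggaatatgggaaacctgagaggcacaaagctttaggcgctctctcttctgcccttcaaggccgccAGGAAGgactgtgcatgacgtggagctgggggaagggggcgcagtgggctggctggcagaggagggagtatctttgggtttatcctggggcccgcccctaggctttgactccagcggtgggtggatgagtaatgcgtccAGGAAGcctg
In Mmp13, Mmp12, Mmp3 and Mmp10 the AP-1 match lay upstream of the TATAAA match. The TATAAA match began at base -16 in Mmp13, 5 in Mmp12, -7 in Mmp3 and -29 in Mmp10 from the listed start. In Mmp12 it thus lay past that start, and whether these matches serve as TATA boxes was not tested. The Timp1 promoter held AGGAAG 3 times and no exact match to the other motifs. Only exact matches were searched, and the letters TGAGTAA, which are close to TGANTCA, stand before its last AGGAAG. A match describes letters and says nothing of a factor's binding in these cells.

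HFD feeding was accompanied by higher transcripts of matrix-degrading and of matrix-hardening enzymes in the adipocyte fraction. Of the 89 members 54 passed the filter on low counts, and 29 of these 54 were higher in HFD than in LFD adipocytes (adjusted p under 0.05), where 26.5% of all 14461 tested genes were higher. Another 11 members were lower, against 25% of all tested genes. The median log2 fold change was 0.89 over the tested members and -0.03 over all tested genes. All HFD libraries lay above all LFD libraries for 30 members (32.1% of all tested genes) and below them for 10 (30.5%). The 35 members that were not tested reached at most 1.2 CPM in any adipocyte library, and 20 of them were ADAMs. Mmp1a, Mmp1b, Mmp20 and Mmp21 had 0 counts in every library of both fractions.

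In SW adipocytes some members were back near LFD and others were not. Against HFD, 20 of the 54 members were lower in SW adipocytes (15.9% of all tested genes) and 3 were higher (15.6%), in all 23. This number was 11 without the HFD library 401, 10 without 403, and 15 without the SW library 408 or 409. Against LFD, 14 members were higher in SW adipocytes (10.9%) and 3 were lower (6.18%), in all 11 without the LFD library 406. These comparisons share libraries with each other and with that of HFD and LFD, so their counts are not independent. HFD and SW together against LFD gave 27 higher members (20.7%) and 9 lower members (19.4%). By role, all 5 lysyl oxidases were higher in HFD than in LFD adipocytes, and 4 of the 5 were lower in SW than in HFD adipocytes. Of the 11 tested secreted MMPs, 7 were higher in HFD and 7 in SW adipocytes than in LFD adipocytes.

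**Figure D1:**
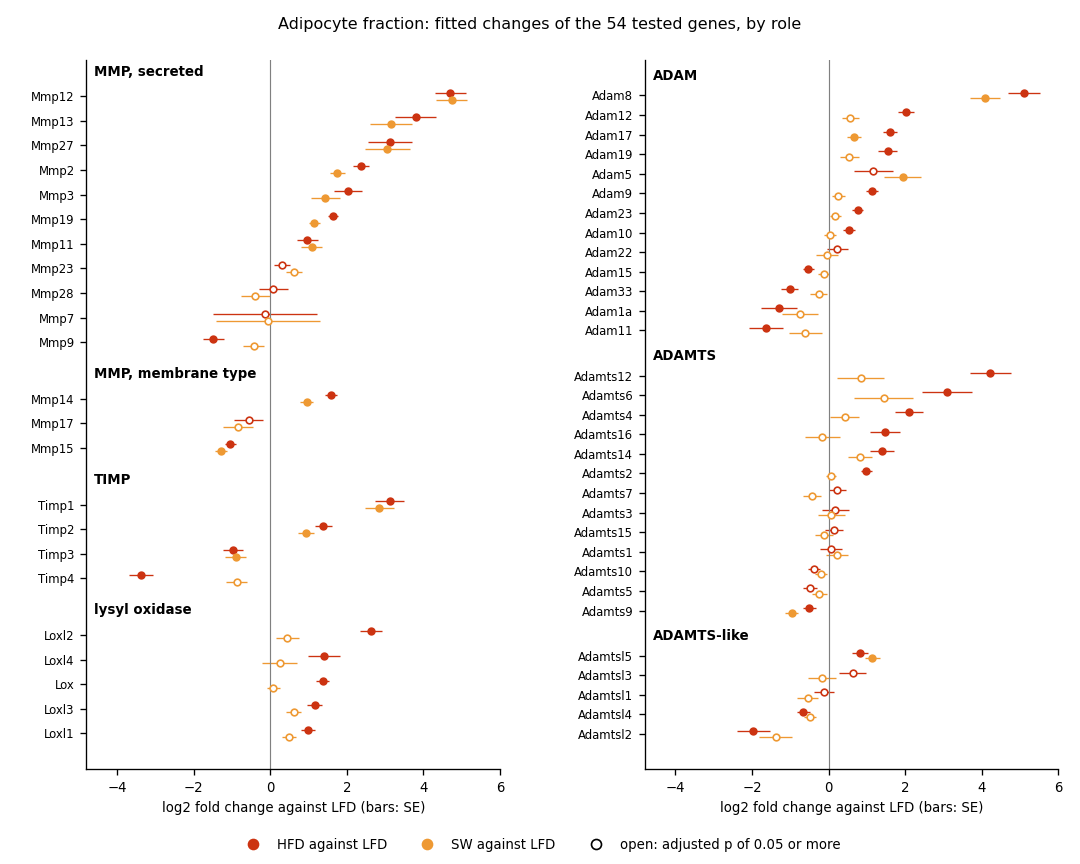
Fitted log2 fold changes of the 54 tested members in the adipocyte fraction, HFD against LFD in red and SW against LFD in orange, by role. Points are fitted values, bars standard errors, and filled points have an adjusted p under 0.05. Mmp12 stands near 4.7 in both comparisons, while the 5 lysyl oxidases are filled for HFD and open but above 0 for SW.

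Mmp12, the macrophage elastase, had the highest CPM per kb of the secreted MMPs in HFD and SW adipocytes, but not in LFD adipocytes, where Mmp2 led them. Its CPM was 75.5, 43.2 and 23.1 in the LFD adipocyte libraries, 1324, 1029.9 and 1322 in the HFD libraries, and 1369.6, 1387 and 1006 in the SW libraries. The HFD and SW values overlapped and stood far above every LFD value. Mmp12 was 26-fold higher in HFD than in LFD adipocytes (log2 fold change 4.70 ± 0.40 SE, adjusted p = 1.8e-05) and 26.6-fold higher in SW than in LFD (4.74 ± 0.40, adjusted p = 6.1e-05). SW and HFD differed by a log2 of only 0.03 ± 0.34 (adjusted p = 0.949). Per kb of transcript, Mmp12 had the highest level of all members in HFD and in SW adipocytes (274 and 280.3 CPM per kb), while Timp3 and Timp4 led in LFD adipocytes (107 and 99.9 CPM per kb).

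Of its neighbours in the chromosome 9 cluster, Mmp13, Mmp3 and Mmp27 were also higher in HFD and in SW than in LFD adipocytes, at lower CPM. Mmp13, an interstitial collagenase of rodents, had 0.793, 0.567 and 0 CPM in LFD adipocytes, 7.96, 5.22 and 6.84 in HFD and 5.89, 3.9 and 3 in SW. Mmp3, or stromelysin-1, cuts proteoglycans and activates other MMPs, and went from 16.5, 18.3 and 8.04 CPM in LFD to 73.7, 45 and 58.4 in HFD and 61.8, 29.3 and 27.9 in SW. For both genes every HFD and SW library lay above every LFD library. The log2 fold changes against LFD were 3.80 ± 0.53 (HFD, adjusted p = 2.93e-04) and 3.14 ± 0.55 (SW, adjusted p = 0.0031) for Mmp13. For Mmp3 they were 2.02 ± 0.37 (HFD, adjusted p = 0.00148) and 1.44 ± 0.37 (SW, adjusted p = 0.0236). Mmp27 rose by 3.13 ± 0.58 in HFD (adjusted p = 0.0014), from at most 0.309 CPM in LFD to at least 1.25 CPM. None of these 4 cluster genes passed the threshold between SW and HFD, where their values ran from -0.66 to 0.03. Mmp7, matrilysin, was the fifth tested cluster gene, and its LFD values of 1.9, 6.45 and 0 CPM overlapped the HFD values of 8.11, 0 and 0.894 CPM. Mmp10 was too low to test, with 0 counts in each LFD library and 8, 8 and 10 counts in the HFD libraries, a difference near the limit that 3 counts set in the LFD libraries (0.152 to 0.488 CPM).

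The gelatinases Mmp2 and Mmp9 differed in opposite directions between HFD and LFD adipocytes. Mmp2, gelatinase A, had 43.8, 49.9 and 33 CPM in LFD adipocytes, 241, 164 and 251 in HFD and 158, 139.7 and 130.0 in SW. No 2 diet groups overlapped. Mmp2 was 5.15-fold higher in HFD than in LFD (log2 2.37 ± 0.20, adjusted p = 1.94e-05), lower in SW than in HFD (-0.62 ± 0.19, adjusted p = 0.0364), and still above LFD in SW (1.75 ± 0.20, adjusted p = 2.83e-04). Mmp14, the membrane-type enzyme that activates pro-Mmp2, followed the same steps, with 41.1 to 45.8 CPM in LFD, 96.2 to 151 in HFD and 81.1 to 87.5 in SW. Mmp9, gelatinase B, went the other way, from 6.98, 10.4 and 6.99 CPM in LFD to 2.86, 2.38 and 3.53 in HFD and 6.62, 7.45 and 4.22 in SW. It was lower in HFD than in LFD (log2 -1.49 ± 0.27, adjusted p = 0.00149) and higher in SW than in HFD (1.06 ± 0.27, adjusted p = 0.0184). Mmp15, another membrane-type MMP, fell in HFD (-1.04 ± 0.14, adjusted p = 2.8e-04) and was also lower in SW than in LFD (-1.29 ± 0.15, adjusted p = 2.63e-04). Mmp19 and Mmp11 were higher in both HFD and SW than in LFD.

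The 4 inhibitors split into a pair that rose and a pair that fell. Timp1, the inducible inhibitor, had 7.93, 7.69 and 3.3 CPM in LFD adipocytes, 46.9, 66.8 and 54.5 in HFD and 72.4, 33.5 and 33.6 in SW. All HFD and SW values lay above all LFD values, and the changes against LFD were 3.13 ± 0.38 (HFD, adjusted p = 1.28e-04) and 2.85 ± 0.38 (SW, adjusted p = 6.52e-04) on the log2 scale. Timp2, which also helps Mmp14 to activate pro-Mmp2, rose by 1.39 ± 0.21 in HFD (adjusted p = 5.12e-04) and was 0.92 ± 0.21 above LFD in SW (adjusted p = 0.0136). Timp4, the inhibitor known from heart and fat, had the largest fall of the 54 tested members between LFD and HFD adipocytes. It measured 442, 635 and 569 CPM in LFD, 65.2, 64.8 and 29.2 in HFD and 263, 328 and 308 in SW, so that the SW libraries stood between the other diets without overlap. Timp4 was 10.4-fold lower in HFD than in LFD (log2 -3.37 ± 0.30, adjusted p = 2.37e-05) and 5.66-fold higher in SW than in HFD (2.50 ± 0.29, adjusted p = 0.00206). Its difference between SW and LFD missed the threshold (-0.87 ± 0.28, adjusted p = 0.0566). Timp3, which is bound to the matrix and also blocks Adam17, was lower than LFD in HFD (-0.97 ± 0.27, adjusted p = 0.0119) and in SW (-0.90 ± 0.27, adjusted p = 0.0424). Timp3 shares 1733 exon bases with Syn3 on the opposite strand, and its counts cannot be split from Syn3 where strand was not used. Of the 10 adipocyte markers 8 were lower in HFD than in LFD adipocytes, and the part of that shift in the falls of Timp3 and Timp4 was not tested.

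**Figure D2:**
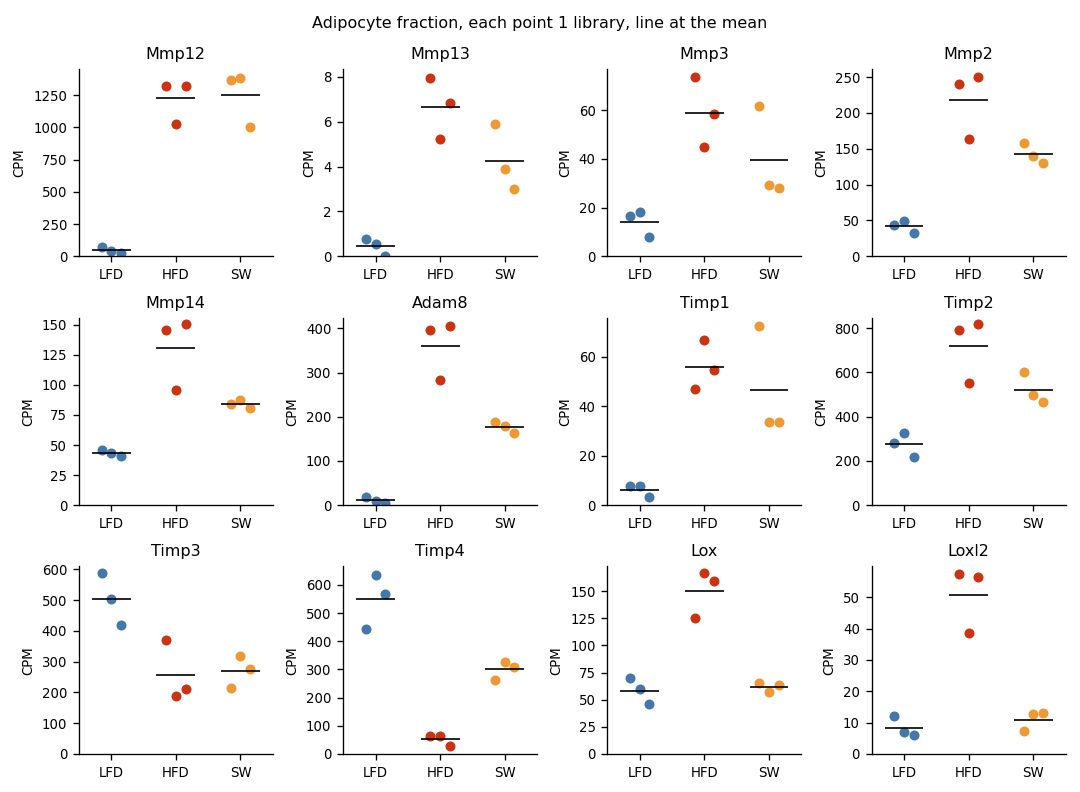
CPM of 12 members in the 9 adipocyte libraries, 1 point per library, with a line at the mean of 3 libraries and an axis from 0 in each panel. Mmp12 and Timp1 stay high in SW, Lox and Loxl2 lie near LFD in SW, and Timp4 runs the other way.

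All 5 lysyl oxidases rose in HFD adipocytes, and Lox, Loxl2, Loxl3 and Loxl4 were lower in SW than in HFD adipocytes. Lox, the founding enzyme, had 69.9, 59.4 and 45.8 CPM in LFD adipocytes, 125, 167 and 159 in HFD and 65, 56.7 and 63.1 in SW. Loxl2, which acts on the basement membrane collagen IV, had 12.1, 6.96 and 6.07 CPM in LFD, 57.3, 38.5 and 56.3 in HFD and 7.25, 12.6 and 13 in SW. For both genes the SW values fell among or close to the LFD values and below every HFD value. Loxl2 was 6.21-fold higher in HFD than in LFD (log2 2.63 ± 0.30, adjusted p = 8.25e-05) and 4.57-fold lower in SW than in HFD (-2.19 ± 0.28, adjusted p = 0.0029). Lox changed by 1.37 ± 0.17 (adjusted p = 1.4e-04) and then by -1.29 ± 0.17 (adjusted p = 0.00299). Loxl4, Loxl3 and Loxl1 rose by 1.41 ± 0.42, 1.16 ± 0.19 and 0.99 ± 0.18 in HFD. Loxl1 missed the threshold between SW and HFD (-0.50 ± 0.18, adjusted p = 0.0585). Loxl3 (-0.54, adjusted p = 0.0434) and Loxl4 (-1.16, adjusted p = 0.0451) passed it narrowly by edgeR. They stayed called in 8 of 16 and 7 of 15 other settings, against 16 of 16 for Lox and for Loxl2. All SW values of Loxl1 (66.3 to 93.9 CPM) and Loxl3 (9.87 to 12.1 CPM) lay above all LFD values (42.1 to 61.3 and 6.07 to 8.72 CPM). Between SW and LFD no lysyl oxidase passed edgeR's threshold, with 2 of 5 at an unadjusted p under 0.05 and 1 called by DESeq2 and 0 by limma-voom.

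Most genes of a list of matrix proteins went the same way. Of 20 tested matrix genes (collagens, laminins, fibronectin, fibrillin, elastin and proteoglycans), 15 were higher in HFD than in LFD adipocytes, and the median over the list was 1.02 on the log2 scale. Not among the 15 were Eln (elastin), Col4a1 and Col4a2 (collagen IV), Dcn and Hspg2. Eln had 59.6, 52.7 and 28.6 CPM in LFD and 52, 31.3 and 45.8 CPM in HFD adipocytes. Between SW and HFD, 15 of the 20 were lower (median -0.96), and 2 of the 20 were higher in SW than in LFD. Col1a1, a chain of type I collagen, changed by 2.04 ± 0.27 and then by -1.39 ± 0.26. The fibroblast and progenitor markers (8 genes) summed to 1017 to 1307 CPM over all 9 adipocyte libraries, and 1 of the 8 was higher and 1 lower in HFD than in LFD.

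Among the ADAMs, Adam8 had the widest difference of all tested members. This sheddase of myeloid cells had 18.7, 9.03 and 4.35 CPM in LFD adipocytes, 396, 283 and 405 in HFD and 189, 179 and 163 in SW. The groups did not overlap, and the SW libraries stood between the others. Adam8 was 34.6-fold higher in HFD than in LFD (log2 5.11 ± 0.42, adjusted p = 1.48e-05), 17-fold higher in SW than in LFD (4.09 ± 0.40, adjusted p = 1.16e-04) and lower in SW than in HFD (-1.03 ± 0.34, adjusted p = 0.0446). Adam17, which releases tumour necrosis factor from the cell surface, rose by 1.61 ± 0.18 in HFD (adjusted p = 9.4e-05) and then fell, to 0.67 ± 0.18 above LFD in SW (adjusted p = 0.03). Adam12, an ADAM of mesenchymal cells, had 26.6, 17.6 and 14.4 CPM in LFD, 66.2, 80 and 88.7 in HFD and 29.5, 24.4 and 32.3 in SW. It changed by 2.02 ± 0.22 (adjusted p = 6.33e-05) and then by -1.45 ± 0.21 (adjusted p = 0.00381). Adam10, the sheddase of Notch receptors, rose by 0.52 ± 0.16 (adjusted p = 0.019), and Adam9, Adam19 and Adam23 were also higher in HFD and lower in SW than in HFD. Adam15, Adam33, Adam11 and Adam1a were lower in HFD than in LFD, but Adam1a shares exon bases with other genes on its own strand and its counts are uncertain. The one further ADAM above LFD in SW was Adam5 (1.94 ± 0.49, adjusted p = 0.0208), at 0.264 to 0.464 CPM in LFD and 0.946 to 1.92 CPM in SW. Adam5 is known from male germ cells, and 12 other transcripts of those cells summed to 2.37 to 6.18 CPM in LFD and 6.52 to 25.4 CPM in SW adipocytes, whose part in this difference was not tested.

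Of 13 tested ADAMTS genes 6 were higher in HFD than in LFD adipocytes, beside 26.5% of all tested genes. None of the 13 was higher in SW than in LFD by edgeR, DESeq2 or limma-voom, with 1 at an unadjusted p under 0.05, beside 10.9% of all tested genes by edgeR. Adamts12, which cuts cartilage oligomeric matrix protein, had 3.33, 1.03 and 1.19 CPM in LFD, 39.1, 16.9 and 35.7 in HFD and 1.16, 2.82 and 4.44 in SW. The HFD libraries stood apart, and the LFD and SW libraries overlapped. Adamts12 was 18.7-fold higher in HFD than in LFD (log2 4.22 ± 0.54, adjusted p = 1.76e-04) and 10.5-fold lower in SW than in HFD (-3.39 ± 0.48, adjusted p = 0.00369). The aggrecanase Adamts4 followed with 2.09 ± 0.37 (adjusted p = 0.00117) and -1.67 ± 0.35 (adjusted p = 0.00921). Adamts2, which trims procollagens I and III, changed by 0.99 ± 0.14 and then by -0.92 ± 0.14. Adamts6 and Adamts16, at most 2.03 CPM in any adipocyte library, also rose in HFD and were lower in SW than in HFD, by -1.64 each on the log2 scale. Adamts14 rose by 1.40 ± 0.31 (adjusted p = 0.0041), while Adamts7 was called only between SW and HFD (-0.66 ± 0.23, adjusted p = 0.0492). The other aggrecanase, Adamts5, had a higher level than Adamts4, 254 to 340.0 CPM in LFD and 177 to 256 in HFD, and missed the threshold (-0.49 ± 0.19, adjusted p = 0.0538). Adamts1 also did not pass (0.06 ± 0.29). Adamts9 was lower than LFD in HFD (-0.51 ± 0.17, adjusted p = 0.0287) and in SW (-0.96 ± 0.17, adjusted p = 0.00384). Of the ADAMTS-like genes, which lack the protease domain, Adamtsl5 rose in HFD (0.82 ± 0.20) and Adamtsl2 and Adamtsl4 fell.

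Other enzymes of the matrix showed both kinds of course. Of 26 tested genes in a list of proteases, collagen modifiers and regulators, 12 were higher and 3 lower in HFD than in LFD adipocytes, 1 was higher and 6 lower in SW than in HFD, and 8 were higher and 2 lower in SW than in LFD. The lysosomal collagenase Ctsk was 3.36 ± 0.27 above LFD in HFD and 2.95 ± 0.27 above it in SW. The lysyl hydroxylase Plod1, which prepares collagen for cross-linking, rose by 0.51 ± 0.13 in HFD and was at 0.00 ± 0.13 of LFD in SW (adjusted p = 0.997). Of the 13 tested macrophage markers 13 were higher in HFD (median log2 2.81) and 11 in SW (median 2.54) than in LFD adipocytes, and 5 were lower in SW than in HFD. Endothelial markers summed to 1260 to 1589 CPM in LFD and 634 to 1245 CPM in the other diets, and mesothelial markers to 71.4 to 127 and 11.5 to 37.7 CPM. The part of these cells in the changes of the members was not tested.

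In both SW and HFD mice, Mmp2, Timp2, Loxl1 and Loxl3 were higher in the SVC than in adipocytes, and Timp3, Timp4 and Lox were lower. Mmp2 reached 215 to 1096 CPM in the SVC and Timp2 1216 to 3882 CPM, and Timp2 had the highest level per kb of all members in that fraction under each diet. In SW mice, 42 of 75 tested members were higher in the SVC than in adipocytes (35.6% of all tested genes) and 12 were lower (32.8%), and in HFD mice 16 were higher (16.2%) and 7 lower (12.9%). The filter could let a gene into this fit through 1 library. Of the 42 members, 11 were ADAMs known from male germ cells, some of them admitted through the library in which they were high. Of such ADAMs, 14 were tested with all libraries and 7 without SVC library 413. Without that library, 28 members were higher in SW mice, and without 412, 36. Among the 16 members higher under both diets were Mmp2, Mmp9, Mmp23, Timp2, Loxl1 and Loxl3. The 5 lower under both were Timp3, Timp4, Lox, Adamts5 and Adamts9, with Timp4 at -3.37 ± 0.30 in SW mice (adjusted p = 8.52e-07). Lox stood alone among the lysyl oxidases, since it was lower in the SVC of SW mice (-1.44 ± 0.26, adjusted p = 2.67e-04) while the other 4 were higher, by 2.41 to 3.43 on the log2 scale. Mmp12 was 2.77-fold lower in the SVC than in adipocytes of SW mice (-1.47 ± 0.37, adjusted p = 0.0034), and the summed macrophage markers were 14325 to 20601 CPM in that SVC and 6470 to 9910 CPM in those adipocytes.

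With the 3 unmatched columns left out, 1 of the 3 SVC libraries that the labels name for LFD could be used, and no test against LFD was made in this fraction. Past 2-fold, 23 of 71 members were higher in the HFD than in the LFD SVC (35.1% of all tested genes) and 31 were lower (20%), and in SW 20 were higher (21.7%) and 22 lower (14.5%). Both counts of higher members include ADAMs known from male germ cells. Of these ADAMs 13 were tested, with a median log2 difference of 2.96 in HFD and 5.90 in SW. Adam2, for example, had 0 counts in the LFD library, 1 and 2 in HFD, and 39 and 127 in the SW libraries 412 and 413. Folds from counts so near 0 are no measure of size. The median log2 difference between HFD and LFD was -0.40 over the members and 0.33 over all tested genes. Fibroblast and progenitor markers summed to 4708 CPM in the LFD SVC library, 1422 to 1560 CPM in HFD and 2688 to 3163 CPM in SW, and their part in these differences was not tested. Mmp9 was at 544 CPM under LFD, 3.88 and 28.4 in HFD and 135, 70.4 and 124 in SW. That LFD library also held the most mesothelial transcripts, 877 CPM against 26.6 to 161 CPM in the other SVC libraries, and their part in the level of Mmp9 was not tested. Mmp12 ran the other way, with 21.7 CPM in LFD, 1173 and 449 in HFD and 371, 361 and 282 in SW. Adam8 stood at 59.9 CPM under LFD and at 445 to 510.4 CPM in the other 5 libraries. Summed macrophage markers were 8691 CPM in the LFD SVC, 10688 to 19853 in HFD and 14325 to 20601 in SW.

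Between SW and HFD, 8 of 71 tested SVC members were higher in SW (5.71% of all tested genes) and 5 were lower (11.7%). Mmp11, or stromelysin-3, had 50.6 and 23.1 CPM in HFD and 143, 143 and 110.0 in SW (log2 1.84 ± 0.38, adjusted p = 0.0381). Loxl1, which cross-links elastin, had 211 and 276 CPM in HFD and 568, 571 and 529 in SW (1.19 ± 0.25, adjusted p = 0.0381). The sheddase Adam10 had 75.8 and 45.2 CPM in HFD and 9.17, 14.9 and 8.76 in SW (-2.46 ± 0.35, adjusted p = 0.0362), and Adam17 differed by -2.29 ± 0.42 (adjusted p = 0.0362). For these 4 genes the SW and HFD libraries did not overlap. Mmp7, Mmp17, Mmp23, Adamtsl1, Adamts2 and Loxl3 were also higher, and Adam9, Adam22 and Lox lower. The calls rest on few libraries: 0 members passed edgeR's threshold without the SW library 412 or without 413, although 22 and 32 had an unadjusted p under 0.05. Without SW library 414 the number was 2. Leaving out either HFD library left a group of 1, so no calls are read from those fits. DESeq2 called 26 members and limma-voom 11 with all libraries.

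**Figure D3:**
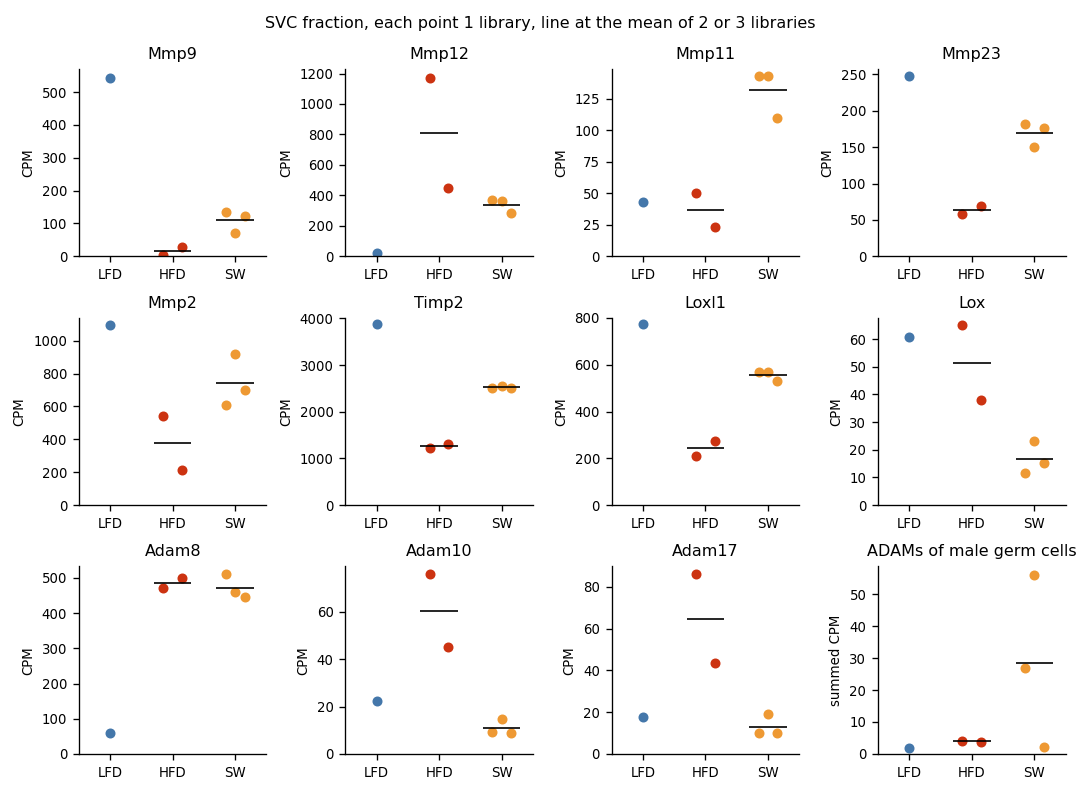
CPM of 11 members in the 6 SVC libraries and, in the last panel, the summed CPM of 20 ADAMs known from male germ cells. Each point is 1 library, with a line at the mean of 2 or 3 libraries and an axis from 0; Mmp9 is highest in LFD, Adam10 and Adam17 lie lower in SW than in HFD, and the germ cell ADAMs stand out in 2 of the 3 SW libraries.

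The change from HFD to SW was set against itself in the 2 fractions. It was more positive in the SVC than in adipocytes for 14 of 75 tested members (11.4% of all tested genes) and more negative for 6 (15.7%). Loxl2 had the largest positive difference among the members, and Adam7 the largest negative one (-4.04 ± 1.44). Among the lysyl oxidases the difference of the changes was 3.26 ± 0.43 for Loxl2 (adjusted p = 9.79e-04), 2.50 ± 0.60 for Loxl4, 1.78 ± 0.31 for Loxl1 and 1.52 ± 0.26 for Loxl3 on the log2 scale. Lox fell in both fractions, and its difference of -0.19 ± 0.38 did not pass the threshold. For the matrix genes, 14 of 21 had a more positive change in the SVC. Adam10 had the reverse difference, -1.82 ± 0.34 (adjusted p = 0.00302). The sum of the fibroblast and progenitor markers was higher in the SW than in the HFD SVC libraries. Of these 8 markers, 2 were called higher and 1 lower, and their part was not tested.

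**Figure D4:**
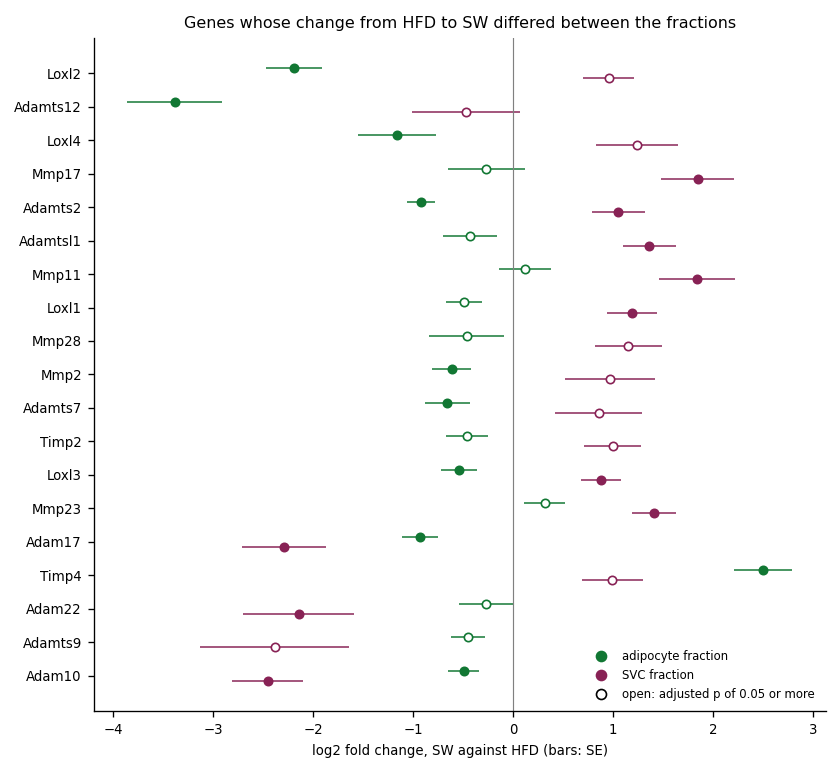
Log2 fold change from HFD to SW in the adipocyte fraction (green) and the SVC fraction (purple) for the 19 members tested in both fractions whose changes differed. Bars are standard errors and filled points have an adjusted p under 0.05. Loxl2 stands at -2.19 in adipocytes and 0.95 in the SVC, and Adam10 at -0.50 and -2.46.

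The members include 20 ADAMs known from testis and sperm, among them Adam2 (fertilin beta) and Adam3 (cyritestin), proteins of the sperm surface. Their summed level was 26.9 and 56 CPM in the SW SVC libraries 412 and 413, against 2.3 CPM in the third SW library, 1.75 CPM in the LFD library and 3.79 to 4.0 CPM in the HFD libraries. Adam2 had 39 and 127 counts in those 2 libraries and 2 in the third, and Adam3 had 28, 232 and 0. Transcripts of 12 other genes of male germ cells summed to 822 and 931 CPM in 2 SW libraries and 44.7 CPM in the third, 8.75 to 33 CPM in the remaining SVC libraries, and 0.417 to 25.4 CPM in adipocytes. Both lists were made after the levels were seen. Of the 42 members called higher in the SVC than in adipocytes of SW mice, 11 were such ADAMs. Without library 413, 28 members were higher, and 1 of the 7 such ADAMs still tested was among them (edgeR). A setting without both 412 and 413 was added after seeing the data and left 1 SW library of the SVC. The fitted values of Adam2, Adam32 and Adam1a were then below 0, against 2.93, 2.92 and 2.53 on the log2 scale with all libraries. That of Adam5 was 0.05, against 2.46 with all libraries. Adam1a had 0 counts in the SW library left, so that its fitted fold is no measure of size. Adam7 and Adam28, ADAMs known from the epididymis, were highest in the LFD SVC library, with 8.91 and 6.11 CPM, and transcripts of 8 other genes of that epithelium summed to 82.1 CPM there, 7.88 and 161 CPM in HFD and 6.24 to 12.2 CPM in SW. Adam28 had 35 counts in the LFD library and 0 in the other 5 SVC libraries.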

How the data were processed

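RNA of adipocyte and SVC fractions was sequenced by the authors on a HiSeq instrument from TruSeq libraries, and the processing notes name Bowtie2, RSEM, limma and the build mm9. The deposited values are estimated counts per gene, given as whole numbers. Whether runs of a library were added, and whether strand was used, is not given in the sources used here. Of the columns, 15 matched a group by name, and 3 that matched no label were not used. Replicates carry no number of the labels.

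Genes were kept by filterByExpr (minimum count 10) and tested with edgeR 4.0.16 (quasi-likelihood F test, TMM factors, R 4.3.3), with Benjamini-Hochberg adjustment over all tested genes and a threshold of 0.05. Each fraction was fitted over its own libraries, and fractions were compared in 1 fit of all 15. Where a fit held the LFD SVC group of 1 library, a gene could pass the filter through 1 library. CPM use the factors of the fraction's own fit. The script was tested on simulated data. Alternatives were DESeq2 1.42.0, limma-voom 3.58.1, other scaling factors, other filters and leaving out libraries. Every library pair of a group differed by more than counting noise. The chi-square of counts per degree of freedom was 13.7 to 96.8 for adipocyte pairs and 28.0 to 65.4 for SW pairs of the SVC. For the only HFD pair of the SVC, 212 and 411, it was 407.7. Coordinates are from GENCODE M21 (GRCm38), to which all 89 members matched by gene ID, and 23 share exon bases with another gene. Promoters are from RefSeq (GRCm38.p6).

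Members named were, in each comparison, the 8 with the largest rise and the 8 with the largest fall among those called, fixed members of each role (22 genes), those called in more than 1 adipocyte comparison, those at 0 in a whole group, and those whose change differed between fractions. The members and lists were chosen with earlier results of these data known. Counts of 0 allow up to 3 counts, and such limits cover counting error only.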

Additional observations from a re-analysis of the deposited data

Results flagged for a closer look

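Moving from HFD to SW, 20 members changed differently in adipocytes and in the SVC by the interaction term of the joint fit (edgeR, adjusted p from 7.97e-04 to 0.0445). The difference was positive for 18.7% of the 75 tested members and for 11.4% of all 17441 tested genes. It was negative for 8% of the members and 15.7% of all tested genes, so such differences were common among all genes. The SVC change minus the adipocyte change was, on the log2 scale, 3.26 for Loxl2, 3.07 for Adamts12, 2.50 for Loxl4, 2.24 for Mmp17, 2.09 for Adamts2, 1.90 for Adamtsl1 and 1.85 for Mmp11. It was 1.78 for Loxl1, 1.73 for Mmp28, 1.73 for Mmp2, 1.65 for Adamts7, 1.56 for Timp2, 1.52 for Loxl3 and 1.19 for Mmp23. The SVC change was the lower one for Adam17 (-1.22), Timp4 (-1.40), Adam22 (-1.71), Adamts9 (-1.75), Adam10 (-1.82) and Adam7 (-4.04).

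Adam17 and Adam10 fell in both fractions. For Adam22 the adipocyte value did not pass the threshold (-0.28, adjusted p = 0.452), for Adamts9 neither value passed (-0.45 in adipocytes and -2.39 in the SVC), and for Timp4 the SVC value did not pass (0.99, adjusted p = 0.0635). Adam7 had at most 0.361 CPM in any adipocyte library, so its difference rests on the SVC libraries, where HFD had 1.04 and 3.59 CPM and SW 0.438 to 0.722 CPM. The same SVC libraries enter every one of these differences. Only 2 of them are HFD libraries, and leaving out either leaves a group of 1, so no numbers from such fits are given.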

How the results depend on the processing

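No paired analysis was possible because the columns of the count tables carry no replicate number of the labels, so the fit with a replicate block was not run. Leaving out each library in turn moved the number of members called to 34 to 44 for HFD against LFD adipocytes, 10 to 25 for SW against HFD, 11 to 20 for SW against LFD, 30 to 38 for HFD and SW together against LFD, 0 to 27 for SVC SW against HFD, 41 to 56 and 18 to 28 for SVC against adipocytes in SW and in HFD mice, and 16 to 29 for the difference between fractions. In the SVC, DESeq2 called 26 members between SW and HFD where edgeR called 13, and 2 were called without both SW libraries that held germ cell transcripts, a setting chosen after seeing the data. With at least 10 counts in every library, 33 members were called between the fractions in SW mice in place of 54, among fewer genes tested. Apart from the fits without both of those SW libraries, the other settings for these numbers stayed within 1.5 times of the value reported. None of the members that the naming rule takes in a comparison changed direction in it under these settings. Outside these, the fitted values of Adam1a, Adam2 and Adam32 between the fractions in SW mice went from 2.53, 2.93 and 2.92 to below 0. That of Adam5 went from 2.46 to 0.05. These values are from the fit without both libraries with germ cell transcripts, which left 1 SW library of the SVC. Of the members checked in this way, 23 of 28 stayed called under every setting between HFD and LFD adipocytes, 8 of 18 between SW and HFD, 9 of 14 between SW and LFD and 0 of 13 between SW and HFD in the SVC. Fitted against 1 SVC library of LFD mice, the depth of 5781902 counts limits what low members can show.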
